A study of Mus musculus with 5 samples.

Results

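The cyclin-dependent kinase inhibitors Cdkn1a, Cdkn1b, Cdkn1c, Cdkn2a, Cdkn2b, Cdkn2c and Cdkn2d were followed on expression arrays of mouse medulloblastoma and cerebellum. They were taken as all probe sets that the platform annotation assigns to 1 of these gene symbols alone, which gave 9 probe sets for 7 genes, of 34945 probe sets for 18193 genes with a single symbol. The arrays held RNA of 4 medulloblastomas, a tumour of the cerebellum, and of 1 cerebellum labelled P5, taken here to mean postnatal day 5. The labels give no genotype, strain, treatment or tumour age for any single array, and the cerebellum has no age other than P5 and no stated genotype. By its title the series is about Cxcr6 mutant mice (Cxcr6 encodes a chemokine receptor) and a drug against Smoothened, the Hedgehog signal transducer. Neither could be tied to an array here, so tumour, age and genotype cannot be told apart in the comparison below. The array titles carry the prefix ken (medulloblastomas 1 and 2) or hmk (medulloblastomas 3 and 4, and the cerebellum). RNA was taken with Trizol, per the labels, except that the entry of medulloblastoma 4 names only the array maker's standard procedure.

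These inhibitors bind cyclin-dependent kinases, the enzymes that drive a cell through its division cycle, and hold them inactive. The Cip/Kip proteins p21 (Cdkn1a), p27 (Cdkn1b) and p57 (Cdkn1c) bind complexes of cyclins with several kinases, whereas the INK4 proteins p16 (Cdkn2a), p15 (Cdkn2b), p18 (Cdkn2c) and p19 (Cdkn2d) bind the kinases Cdk4 and Cdk6, the partners of the D cyclins. Granule neuron precursors, the cells from which Hedgehog-driven medulloblastoma arises, divide after birth under Sonic hedgehog and then leave the cycle, and loss of Cdkn1b or Cdkn2c is known to favour this tumour in mice. In GRCm38.p6, per RefSeq, Cdkn1a lies at chr17:29090979-29100722, Cdkn1b at chr6:134920401-134925525, Cdkn1c at chr7:143458339-143461059 and Cdkn2d at chr9:21288459-21291421. On chromosome 4 lie Cdkn2a (chr4:89274473-89294619), Cdkn2b (chr4:89306289-89311032) and Cdkn2c (chr4:109660876-109666756).

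Of the 7 genes, Cdkn1b, Cdkn2b and Cdkn2c lay above the cerebellum in every tumour and Cdkn1c lay below it in every tumour, while Cdkn1a, Cdkn2a and Cdkn2d lay on both sides of it. Among all 14109 genes tested, 25.1% lay above the cerebellum in all 4 tumours and 30.8% below it in all 4. Cdkn2b passed the signal filter only through 3 of the tumours, read almost the same as the cerebellum in medulloblastoma 2, and with signals floored at 50 dropped out of the first count, which left 2 genes. None of the 7 was called: limma, a linear model fitted across all genes, found 0 higher, against 0.312% of all genes, and 0 lower, against 0.177%, at a Benjamini-Hochberg adjusted p under 0.05 (0.489% in either direction). Without medulloblastoma 1 limma called Cdkn1b (a difference of 1.0, adjusted p = 0.0429) and Cdkn2c (1.08, adjusted p = 0.0474) higher, among 448 genes called higher and 383 lower. At an unadjusted p under 0.05 there were 3 of the 7 (Cdkn1b, Cdkn1c and Cdkn2c), against 15.2% of all genes. Over the 7 genes the adjusted p-values ran between 0.139 and 0.85. The median log2 difference of the 7 genes was 0.38, beside -0.07 over all genes tested. That median is the value of Cdkn2a, which lay on both sides of the cerebellum. By tumour the median of the 7 was 0.42, 0.057, 1.03 and 0.79 in medulloblastomas 1 to 4. These tests take their spread from the 4 tumours and treat the lone cerebellum as equally variable, and the submitters themselves call the replicates too few for statistics. For 4 arrays set against 1, the smallest p of an exact permutation test is 0.2.

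**Figure D1:**
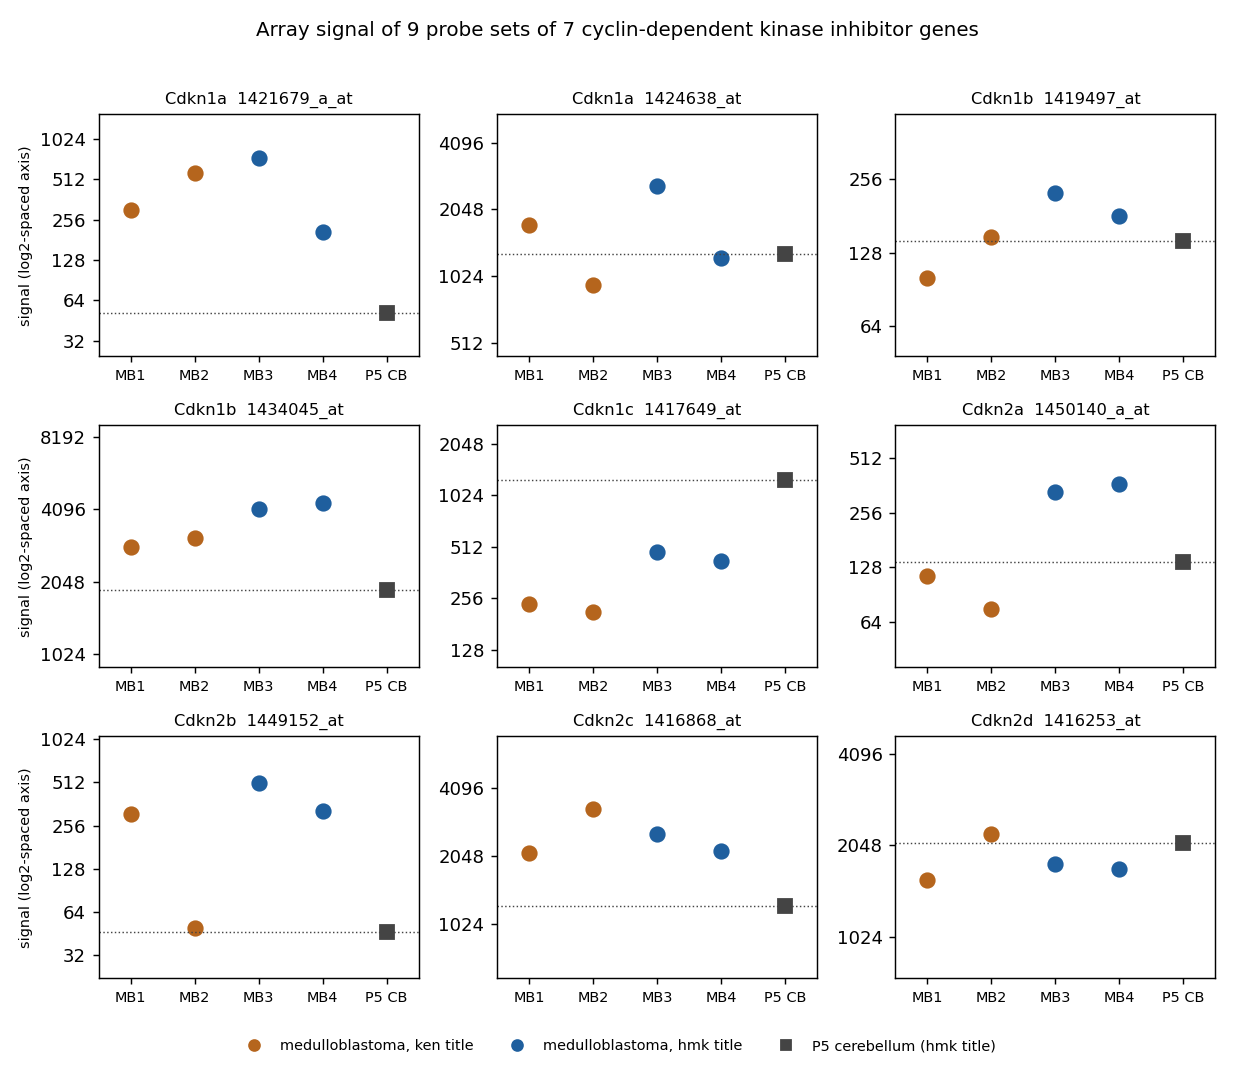
Signal (arbitrary units, log2-spaced axis) of the 9 probe sets on the 5 arrays, with medulloblastomas 1 to 4 (MB1 to MB4) left of the P5 cerebellum (P5 CB), whose level is carried across as a dotted line. Points for Cdkn1c lie below that line and points for Cdkn2c above it in all 4 tumours, and Cdkn2a and Cdkn2b spread the most among tumours.

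Signals are on the authors' linear scale, on which each array has the same trimmed mean of 500, and a level can be set against another only within a probe set. Differences are of log2(signal + 32), tumours minus cerebellum, with the standard error of the fit after ±; this scale understates the change of dim genes. The median signal of all probe sets was 191 to 213 across these tumours, against 232 in the cerebellum. The 3' to 5' signal ratio, a sign of RNA integrity, was 1.21 to 1.45 for actin across these tumours, against 1.33 in the cerebellum, and was highest in medulloblastoma 1. Granule neuron precursor markers were on the whole not higher in the tumours (median difference -0.32 over 8 genes, 2 above and 4 below the cerebellum in every tumour). Of these markers, Atoh1, a transcription factor of the precursors, read 4178, 7341, 9505 and 7872 in medulloblastomas 1 to 4 and 963 in the cerebellum and was called higher (2.81 ± 0.40; limma, adjusted p = 0.0336). Mfap4, whose difference was the largest of that list, read 74.7, 22.2, 20.4 and 163 across these tumours, against 1732 in the cerebellum (-4.33 ± 0.80; limma, adjusted p = 0.0736). Pax6, another transcription factor gene of these cells, was also below the cerebellum in every tumour (-1.02 ± 0.34; limma, adjusted p = 0.241). Mfap4 passed the signal filter only through the cerebellum, so the size of its difference rests on dim tumour signals. In whole tissue, fewer cells of a type and less RNA per cell cannot be told apart.

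Cdkn1c, the gene of p57, read below the cerebellum in all 4 tumours. Its 1 probe set read 235, 212, 479 and 422 in medulloblastomas 1 to 4 and 1251 in the cerebellum. Every tumour was below the 1 cerebellum, by 5.32-, 5.91-, 2.61- and 2.96-fold, where 30.8% of all genes had every tumour below it. The difference was -1.87 ± 0.47 (limma, adjusted p = 0.139), so it was not called. It is the 1 member at least 2-fold from the cerebellum on the same side in each tumour, where 2.63% of all genes were 2-fold lower in each; 0 of the 7 were 2-fold higher in each, against 2.01% of all genes. A lower difference was found in 1.5% of the genes tested.

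Cdkn1c is imprinted and is expressed from the maternal chromosome, in a cluster on chromosome 7 that also holds Igf2. Of 12 other genes listed for that region, 6 were tested, and the rest had no probe set or fell below the signal filter. Of the 6 tested, 4 lay above the cerebellum in every tumour and 1, Igf2, below it, with 0 called. Their median was 0.50, which does not stand for the whole region. Igf2, a growth factor gene expressed from the paternal chromosome, read 2642, 967, 1172 and 1835 across these tumours, against 5569 in the cerebellum (-1.84 ± 0.49; limma, adjusted p = 0.154), and its other probe set was also lower. The antisense transcript gene Kcnq1ot1, whose RNA silences Cdkn1c on the paternal chromosome, read 3199, 1264, 801 and 1135 across these tumours, against 756 in the cerebellum. The Kcnq1ot1 difference was 0.85 ± 0.62. Of the 5 other probe sets of Kcnq1ot1, 4 were also higher and 1 lower by the mean difference. Medulloblastoma 1 read the highest at each of them, so it weighs most on these means. At 1 of those 4 it alone lay above the cerebellum (3530, 924, 846 and 632 in medulloblastomas 1 to 4, against 956). At another, medulloblastoma 4 read the same as the cerebellum (337 in both). Among imprinted genes elsewhere, 6 of 10 tested lay below the cerebellum in every tumour, and 1 was called lower. The called gene was Grb10, a growth-restraining adaptor of insulin receptor signalling (-2.03 ± 0.30; limma, adjusted p = 0.0423). The median of that list was -1.15. Plagl1, which encodes a zinc finger factor, read 2328, 1043, 600 and 640 across these tumours, against 6595 in the cerebellum (-2.70 ± 0.64; limma, adjusted p = 0.125).

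Summed signals of vessel, connective tissue and astroglial markers were below the cerebellum in the same tumours. Summed signals of 8 endothelial and pericyte markers were 3236 to 4567 across these tumours, against 9515 in the cerebellum. Of these markers, 8 of 8 were below the cerebellum in every tumour, where 30.8% of all genes were, and 0 were called. Pecam1, 1 of the 8, passed the signal filter only through the cerebellum, in which it was high. For 8 markers of meninges and fibroblasts the sums were 3990 to 6516 across these tumours, against 14097 in the cerebellum, and 5 of 8 were below it in every tumour, with the collagen gene Col3a1 called lower (limma, adjusted p = 0.0254). For 8 markers of astrocytes and Bergmann glia they were 19554 to 23754 across these tumours, against 67671 in the cerebellum, with 6 of 8 below and 1 above in every tumour, and with Aldh1l1 and the water channel gene Aqp4 called lower (limma, adjusted p = 0.0197 and 0.0262). The part of these cells in the Cdkn1c difference was not tested. The pattern over the 4 tumours most like that of Cdkn1c, by root mean square distance of the log2 differences among 13198 genes, was that of Rest (0.12), then Col1a2 (0.15) and Fgd5 (0.23).

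Cdkn1b, the gene of p27, read higher in every tumour at its bright probe set. The signals at 1434045_at were 2848, 3101, 4095 and 4362 in medulloblastomas 1 to 4 and 1893 in the cerebellum. All tumours were above the cerebellum, by 1.5- to 2.30-fold, and the hmk-titled ones were the highest. The difference was 0.89 ± 0.29 (limma, adjusted p = 0.230). The dim probe set 1419497_at read 101, 148, 225 and 182 across these tumours, against 143 in the cerebellum, which lay within the tumours (0.12 ± 0.53). With both probe sets averaged the Cdkn1b difference was 0.51. Genes whose pattern was nearest to that of Cdkn1b were Ino80b (0.04), Fkbp14 (0.05) and Cry1 (0.06), though 461 genes lay within 0.3 of it.

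The amount of p27 protein is set largely by its breakdown, which these arrays do not measure. Of 12 genes for the breakdown of Cip/Kip proteins, 5 lay above the cerebellum in every tumour and 1 below it, none was called, and the median was 0.15. Skp2, the subunit that hands p27 to the ubiquitin ligase, read 828, 1472, 1498 and 1661 across these tumours, against 580 in the cerebellum (1.14 ± 0.38; limma, adjusted p = 0.243). Of its 5 other probe sets, 4 were higher and 1 was lower. Cul4b, a ligase scaffold, differed by 0.61 ± 0.22 (limma, adjusted p = 0.267), and Rbx1, the RING subunit, by -0.68 ± 0.70 (limma, adjusted p = 0.664).

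For Cdkn1a, the gene of p21 and a target of p53, its probe sets disagreed. The dim probe set 1421679_a_at read 299.9, 569, 743 and 207 in medulloblastomas 1 to 4 and 51.4 in the cerebellum. All 4 tumours were above the cerebellum at that probe set, by 1.52 to 3.22 on the log2 scale; no fold is given over so dim a signal. Its difference was 2.39 ± 0.62 (limma over 31416 probe sets, adjusted p = 0.185), and the probe set passed the signal filter only through the tumours. The bright probe set 1424638_at read 1746, 934, 2623 and 1238 across these tumours, against 1295 in the cerebellum. There 2 tumours lay above the cerebellum and 2 below it (0.23 ± 0.48; limma, adjusted p = 0.85). With both averaged the Cdkn1a difference was 1.31 and all 4 tumours were above. Medulloblastoma 3 was the highest at both probe sets. The order of the other 3 tumours differed between them: medulloblastoma 2 was the second highest at the dim probe set and the lowest at the bright one. Over the probe-set fit as a whole, 0 of the 9 were called, against 0.21% of all probe sets (0.137% higher, 0.0732% lower), and 4 of the 9 had an unadjusted p under 0.05, against 13.1%. All 4 tumours lay above the cerebellum at 4 of the 9 and below it at 1, against 24.5% and 28.6% of all probe sets. Of those 4 above, 2 (the dim Cdkn1a probe set and that of Cdkn2b) passed the filter only through tumours in which they were high, so these counts lend the members no support.

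RefSeq places more than 1 transcript start in Cdkn1a, and the parts of the transcripts that each probe set covers were not known here. Both start windows are shown because the probe sets disagree and because the upstream one holds the p53 site. They run from 250 bases before to 50 after the start (GRCm38.p6, plus strand), the upstream one at chr17:29090729-29091028 and the downstream one at chr17:29093519-29093818, with starts 2790 bases apart. Capitals in these and the following sequences mark matches, on either strand, to the GC box (GGGCGG), the CCAAT box, the TATA box (TATAAA), the E-box (CACGTG), the Gli site (TGGGTGGTC), an E2F site spelled TTTCCCGC, another spelled TTTGGCGC or a further one spelled TTTCGCGC, and to the p53 site.
Cdkn1a upstream start: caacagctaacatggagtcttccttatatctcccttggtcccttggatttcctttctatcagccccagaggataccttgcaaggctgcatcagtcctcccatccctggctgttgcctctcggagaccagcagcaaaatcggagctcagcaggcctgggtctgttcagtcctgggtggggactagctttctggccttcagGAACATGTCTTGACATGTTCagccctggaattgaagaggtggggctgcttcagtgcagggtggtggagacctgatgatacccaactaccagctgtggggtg
Cdkn1a downstream start: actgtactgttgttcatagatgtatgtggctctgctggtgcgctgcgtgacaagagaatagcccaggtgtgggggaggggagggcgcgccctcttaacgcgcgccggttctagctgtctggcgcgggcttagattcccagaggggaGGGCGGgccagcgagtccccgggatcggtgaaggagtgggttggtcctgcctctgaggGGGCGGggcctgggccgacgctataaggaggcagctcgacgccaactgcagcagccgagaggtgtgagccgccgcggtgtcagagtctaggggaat
The p53 site searched for was a pair of adjoining decamers with at most 1 mismatch, a rule set after the sequence was seen. Its match is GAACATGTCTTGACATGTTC, beginning 51 bases before the upstream start. Of 32851 start windows in the table, 0.067% hold such a match, while 35.7% hold a GC box. A match describes the letters of this window and nothing about binding in these samples.

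Of 13 other p53 targets tested, 7 lay above the cerebellum in every tumour and 1 below, 0 were called, and the median difference was 0.70. With the mean of all probe sets per gene the median was 0.32, and with the ken-titled tumours alone it was also 0.32. Per tumour the medians were 0.30, 0.50, 1.01 and 0.73 in medulloblastomas 1 to 4, so medulloblastoma 3 was again the highest. Of those 7 genes, Pmaip1 passed the signal filter only through the tumours, in which it was high, so the filter favoured its place. The death gene Pmaip1 read 291, 141, 171 and 169 across these tumours, against 20.6 in the cerebellum (2.05 ± 0.57; limma, adjusted p = 0.170). Eda2r, a receptor of the TNF receptor family, read 658, 591, 1130 and 729 across these tumours, against 203 in the cerebellum (1.74 ± 0.38; limma, adjusted p = 0.109). The kinase gene Plk2 read 395, 222, 433 and 349 across these tumours, against 1176 in the cerebellum (-1.70 ± 0.39). Its other probe set, too dim for the signal filter, differed by 1.05.

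**Figure D2:**
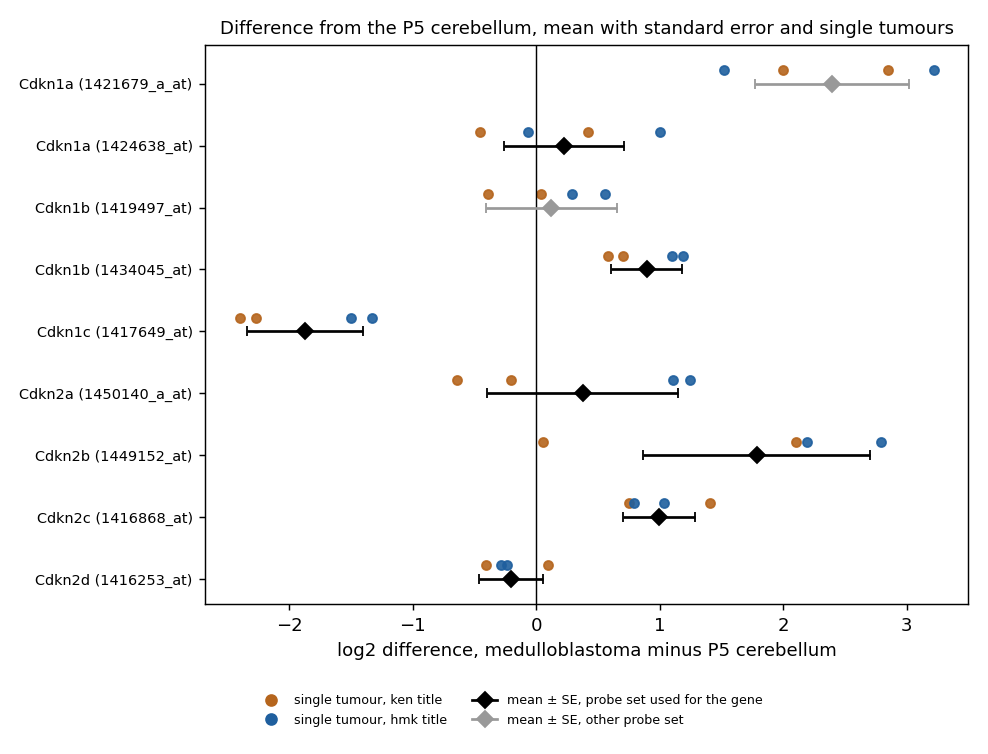
Log2 difference from the P5 cerebellum (x axis) for each of the 9 probe sets (y axis), with dots for single tumours coloured by title prefix and a diamond with bars for the mean ± SE of the limma fit. Cdkn1c is the 1 gene with all tumours left of 0, and the probe sets of Cdkn1a differ, at 2.39 and 0.23.

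Among the INK4 genes, Cdkn2c, the gene of p18, read above the cerebellum in every tumour and varied less among tumours than Cdkn2b. Its probe set read 2098, 3306, 2550 and 2158 in medulloblastomas 1 to 4 and 1231 in the cerebellum. The tumours were 1.70- to 2.69-fold above the cerebellum, with medulloblastoma 2 the highest. The difference was 1.0 ± 0.29 (limma, adjusted p = 0.20), and 94.5% of the genes tested had a lower one. Nearest to it in pattern were Fancf (0.10), Opn4 (0.12) and Ebna1bp2 (0.14), with 167 genes within 0.3.

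Cdkn2d, known for a high level in postmitotic neurons, read 1568, 2228, 1773 and 1713 in medulloblastomas 1 to 4 and 2088 in the cerebellum. Medulloblastoma 2 was slightly above the cerebellum and the other 3 were below it. The difference was -0.21 ± 0.26 (limma, adjusted p = 0.728). Its SD among tumours, 0.21 on the log2 scale, was the smallest of the 7 genes, and 28.1% of the genes tested had a smaller one. Of 8 markers of mature neurons, 5 lay above the cerebellum in every tumour and 3 below it, and 1, the receptor subunit gene Gabra6, was called higher (3.99 ± 0.63; limma, adjusted p = 0.0468). Their median difference was 1.37, 0.78, 0.33 and 0.46 in medulloblastomas 1 to 4, while their summed signals, which the brightest genes weigh on most, were 57324, 33133, 19118 and 23670 in those tumours and 32618 in the cerebellum. Their part in the Cdkn2d values was not tested.

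Cdkn2a and Cdkn2b are neighbours on chromosome 4, 11669 bases apart in GRCm38.p6, and both varied widely among the tumours. Cdkn2b read 307, 49.9, 511 and 326 in medulloblastomas 1 to 4 and 46.7 in the cerebellum. On the log2 scale medulloblastomas 1, 3 and 4 were 2.11, 2.79 and 2.19 above the cerebellum, whereas medulloblastoma 2 was 0.057 above it. No fold is given, since the cerebellum's signal is dim and its distance from background was not analysed here. The difference was 1.78 ± 0.92 (limma, adjusted p = 0.392), and the gene passed the signal filter only through those 3 tumours. Without medulloblastoma 2 the difference was 2.36. Its SD among tumours was 1.19 on the log2 scale, and 98.6% of the genes tested varied less. The nearest patterns were those of Crybb1 (0.37), Psmb8 (0.41) and C1s1 (0.44), and 0 genes lay within 0.3. Summed signals of 8 microglia and macrophage markers were 13622, 11354, 13725 and 12666 in medulloblastomas 1 to 4 and 4803 in the cerebellum, and medulloblastoma 2 was the lowest tumour there. All 8 lay above the cerebellum in every tumour, where 25.1% of all genes did. Some of the 8, Aif1 among them, passed the signal filter only through tumours in which they were high, so the filter favoured their place. The 3 called higher (limma) were Ctss, which encodes a lysosomal protease, C1qa of the complement system and the signalling adaptor Tyrobp (adjusted p = 0.0197, 0.0262 and 0.0468). The part of these markers in the Cdkn2b values was not tested.

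Cdkn2a encodes 2 unrelated proteins, p16 and the p53 activator Arf, from separate starts. It read 114, 76.0, 331 and 369 in medulloblastomas 1 to 4 and 137 in the cerebellum. Both ken-titled tumours were below the cerebellum and both hmk-titled tumours were above it, by 2.42- and 2.70-fold. Over all 4 tumours the difference was 0.38 ± 0.77 (limma, adjusted p = 0.843), and it was 0.72 without medulloblastoma 2, 0.57 without medulloblastoma 1, 0.13 without medulloblastoma 3 and 0.085 without medulloblastoma 4. Its SD among tumours was 0.94 on the log2 scale, and 94.8% of the genes tested varied less. The nearest patterns were those of Lhx3 (0.19), Ccn2 (0.29) and Zfp518a (0.29), and 4 genes lay within 0.3. In Affymetrix naming, the ending of its probe set 1450140_a_at marks probes that match several transcripts of a gene, so Arf and p16 transcripts cannot be told apart.

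The starts of this locus are shown because 1 signal stands for both Cdkn2a transcripts and because its genes differed most among tumours. All are on the minus strand of GRCm38.p6, credited to RefSeq: the Arf start of Cdkn2a at chr4:89294570-89294869, the p16 start at chr4:89282143-89282442, which lies 12427 bases further along the gene, and Cdkn2b at chr4:89310983-89311282.
Cdkn2a Arf start: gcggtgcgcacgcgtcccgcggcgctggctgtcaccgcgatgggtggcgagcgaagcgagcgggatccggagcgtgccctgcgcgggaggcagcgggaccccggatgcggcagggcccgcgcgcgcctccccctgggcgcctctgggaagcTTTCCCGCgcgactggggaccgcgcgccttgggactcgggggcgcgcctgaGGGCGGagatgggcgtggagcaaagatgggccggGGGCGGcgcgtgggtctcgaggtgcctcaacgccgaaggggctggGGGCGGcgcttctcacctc
Cdkn2a p16 start: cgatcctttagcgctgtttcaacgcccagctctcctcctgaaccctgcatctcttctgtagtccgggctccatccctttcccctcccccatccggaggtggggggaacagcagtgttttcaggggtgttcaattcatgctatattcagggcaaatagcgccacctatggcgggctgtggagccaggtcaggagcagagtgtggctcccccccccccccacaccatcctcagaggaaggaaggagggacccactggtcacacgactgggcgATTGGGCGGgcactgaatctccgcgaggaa
Cdkn2b start: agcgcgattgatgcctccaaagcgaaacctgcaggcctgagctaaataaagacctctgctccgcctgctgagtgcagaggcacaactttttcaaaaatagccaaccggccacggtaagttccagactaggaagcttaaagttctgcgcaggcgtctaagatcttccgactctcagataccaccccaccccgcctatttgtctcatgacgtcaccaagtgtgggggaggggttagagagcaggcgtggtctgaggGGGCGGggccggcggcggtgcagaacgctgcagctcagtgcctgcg
The Arf window held 45 CpG dinucleotides, the p16 window 12 and the Cdkn2b window 18, beside a median of 7 over all windows. The E2F match TTTCCCGC was found in the Arf window and in 1.07% of all windows. The GC box occurred in each of the 3, and in the p16 window it overlapped the CCAAT match (read on the other strand), which 37.4% of all windows hold.

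Among 16 regulators of transcription of these genes, 7 lay above and 2 below the cerebellum in every tumour, 0 were called and the median difference was 0.25, or 0.032 with the mean of all probe sets per gene. Bmi1, a Polycomb protein that represses the Cdkn2a locus, read 2876, 4268, 5831 and 5397 in medulloblastomas 1 to 4 and 2000 in the cerebellum (1.14 ± 0.37; limma, adjusted p = 0.235). Bmi1 read higher in both hmk-titled tumours than in both ken-titled ones, as Cdkn2a did. Such an arrangement was shown by 21.5% of all genes, and no relation between Bmi1 and Cdkn2a was tested. Myc read 329, 746, 1333 and 874 across these tumours, against 241 in the cerebellum (1.49 ± 0.61; limma, adjusted p = 0.307).

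Tumours of the 2 title prefixes were set against each other. For Cdkn1b, Cdkn1c, Cdkn2a and Cdkn2b both ken-titled tumours read below both hmk-titled tumours, an arrangement that 21.5% of all genes showed; the opposite arrangement was found in 0 of the 7 and in 23.3% of all genes. The ken minus hmk difference was -1.60 ± 0.43 for Cdkn2a, -1.41 ± 0.66 for Cdkn2b, -0.92 ± 0.28 for Cdkn1c and -0.50 ± 0.18 for Cdkn1b. For Cdkn2b it was -0.38 without medulloblastoma 2 and -2.43 without medulloblastoma 1. In a limma fit with 3 groups, 0 of the 7 were called, against 0.0425% of all genes, and 3 had an unadjusted p under 0.05 (Cdkn1b, Cdkn1c and Cdkn2a), against 12.3%. Adjusted p-values from that limma fit were 0.252 for Cdkn2a and 0.282 for Cdkn1c. What the prefix stands for is not stated.

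Within the hmk-titled arrays, which include the cerebellum, the differences were 2.49 for Cdkn2b, 1.18 for Cdkn2a, 1.15 for Cdkn1b, 0.91 for Cdkn2c and -1.41 for Cdkn1c. In that fit limma called Cdkn1b, Cdkn2b and Cdkn2c higher and Cdkn1c lower (adjusted p = 0.00345, 0.0119, 0.0230 and 0.0132). The spread in that fit comes, for every gene, from a single pair of tumours. Of all 14109 genes tested, that fit called 837 higher and 841 lower. Of the inhibitors called in that fit, Cdkn2b passed the signal filter only through tumours in which it was high. The ken-titled tumours set against the hmk-titled cerebellum gave 1.08 for Cdkn2b, -0.42 for Cdkn2a, 0.64 for Cdkn1b, 1.08 for Cdkn2c and -2.33 for Cdkn1c. Both sets share the 1 cerebellum array.

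**Figure D3:**
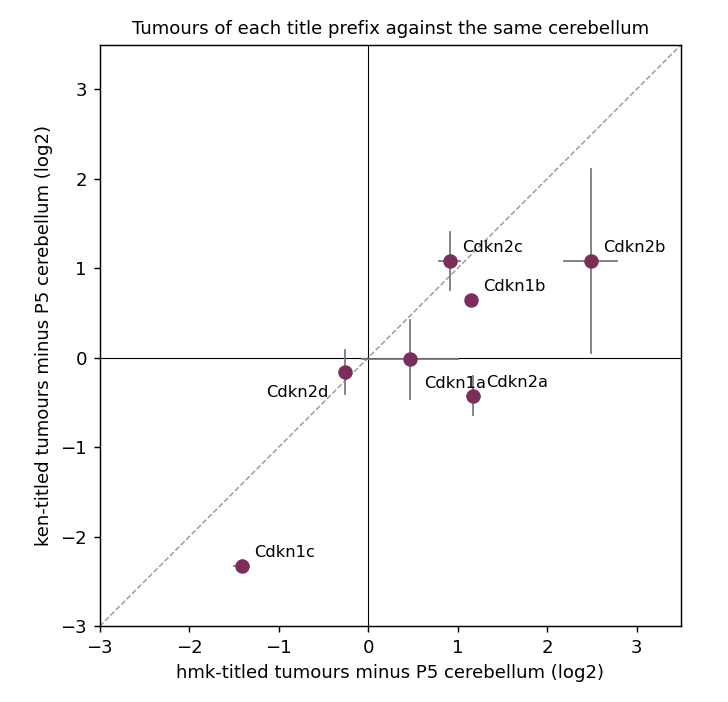
Mean log2 difference from the P5 cerebellum in the 2 ken-titled tumours (y axis) against the 2 hmk-titled tumours (x axis) for the 7 genes, with lines spanning the single tumours and a dashed line of equality. Cdkn2a lies at -0.42 and 1.18, on opposite sides of 0, and Cdkn2c lies near the line of equality.

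The cyclins and kinases that the inhibitors bind mostly read above the cerebellum: 8 of 10 tested lay above the cerebellum in every tumour and 0 below it, with a median of 0.60, and 1 was called. That gene was Cdk6, a kinase bound by the INK4 proteins, at 6067, 10180, 12712 and 12574 in medulloblastomas 1 to 4 and 1479 in the cerebellum (2.73 ± 0.39; limma, adjusted p = 0.0341). Its 2 other probe sets were also higher. The cyclin genes Ccnd1 (2.20 ± 0.52; limma, adjusted p = 0.125) and Ccnd2 (0.79 ± 0.33; limma, adjusted p = 0.317) had all 4 tumours above the cerebellum without being called. The retinoblastoma family and E2F factors, which act below the kinases, included 3 of 11 genes above the cerebellum in every tumour, 0 below it and 0 called (median 0.15, or 0.34 with array medians made equal and 0.066 with the mean of all probe sets per gene, and 0.086 without medulloblastoma 3). E2f5 differed by -0.99 ± 0.69 and E2f1 by 0.69 ± 0.32 (limma, adjusted p = 0.520 and 0.358), and the other probe sets of E2f5 lay at -0.22 and 0.01. Of 8 proliferation markers, 7 lay above the cerebellum in every tumour, with summed signals of 35936 to 47275 across these tumours, against 25230 in the cerebellum and 0 called.

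**Figure D4:**
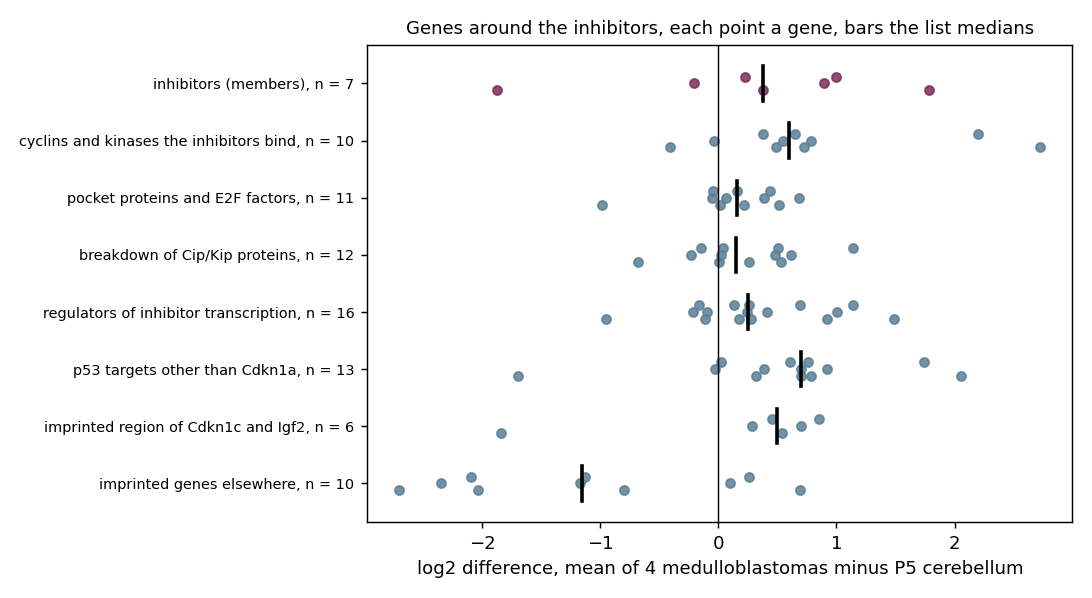
Log2 difference of the mean of the tumours from the P5 cerebellum (x axis) for the 7 inhibitors and for 7 lists of genes around them (y axis), each point a gene that passed the signal filter and each bar a list median. Medians run from -1.15 for imprinted genes elsewhere to 0.70 for p53 targets, and the inhibitors spread from -1.87 to 1.78.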

How the data were processed

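RNA of 4 medulloblastomas and 1 P5 cerebellum was measured on Affymetrix arrays. The deposited values are intensities on a linear scale, made with MAS5 per the submitters' processing notes for 4 arrays; for medulloblastoma 3 the tool is not given in the sources used here. In the deposited intensities each array had a mean of 500.002 after 2% of the probe sets were trimmed at each end. Whether a probe set was above background was not analysed here.

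Arrays were numbered in record order, so the number is only a name, and no label says that the tumours came from separate mice; p-values then measure only the spread between these samples. Of 45101 probe sets, 64 were controls, 34945 had 1 gene symbol, 932 had several and 9160 were unnamed here; 34741 were matched by Entrez ID to RefSeq genes of GRCm38.p6. Each gene was read from its brightest probe set (mean over the 5 arrays), and the 14109 genes whose mean reached 100 entered the test. Signals were scaled to a trimmed mean of 500 and taken as log2(signal + 32). limma 3.58.1 in R 4.3.3 (lmFit, eBayes with trend, 5.02 prior degrees of freedom) compared tumours with cerebellum, two-sided, over genes, over 31416 probe sets, and in a fit of 3 groups between title prefixes. The procedure was also run on simulated data in which the cerebellum was given the spread of the tumours, so the assumed equal spread was not tested.

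The 7 genes and the lists around them were chosen with earlier results of these data known. List members could be named if they were among the 3 of their list with the largest absolute differences or were called; not every such gene is named. The 3 genes nearest in pattern to each gene have the smallest root mean square distance over the 4 tumour minus cerebellum differences. Promoter windows come from RefSeq for 6 of the 7 genes. Alternatives were scalings, constants, filters, choices of probe set, no variance trend, either title prefix alone, and each tumour left out.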

Additional observations from a re-analysis of the deposited data

Results flagged for a closer look

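Among the 8 proliferation markers, medulloblastoma 1 stood apart from the other tumours. Its median log2 difference from the cerebellum was 0.43, against 0.84, 0.83 and 0.86 in medulloblastomas 2, 3 and 4, and its gap to the nearest of them was 0.932 of the whole range, above Dixon's 95% critical value for 4 samples. Its 3' to 5' actin ratio of 1.45 exceeded those of the other arrays; the part of RNA quality was not tested. In all, 24 sets of 4 values were examined, the 9 probe sets and the 15 list medians, and 1 was beyond the critical value; chance flags about 1 in 20.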

How the results depend on the processing

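No paired analysis was possible because there is 1 cerebellum and the replicate numbers are only names. Counts of calls depended strongly on the setting. Over genes, 44 were called higher and 25 lower; with equal medians 78 were higher, with a larger constant added before the log2 45 were lower, without the signal filter 14 were higher and 12 lower, with the mean of all probe sets 19 and 9, without the variance trend 0 and 0, with the hmk-titled arrays alone 837 and 841, and with the ken-titled tumours and the cerebellum 21 and 16. Leaving out each tumour gave 0 to 448 higher and 0 to 383 lower. Of the 7 inhibitors, the hmk-titled arrays alone gave 3 called higher and 1 lower, and leaving out a tumour gave 0 to 2 higher. Over probe sets (43 higher, 23 lower), equal medians gave 14 lower, the larger constant gave 35 lower, no filter 8 and 6, no variance trend 0 and 0, the hmk-titled arrays 1417 and 1100 (3 and 1 of the 9), the ken-titled tumours 0 and 0, and leaving out a tumour 0 to 752 and 0 to 493. Between prefixes (3 higher, 3 lower in ken), equal medians gave 7 and 5, the larger constant gave 5 higher, no filter 0 and 1, the mean of probe sets 5 higher, dropping x_at and s_at probe sets 1 lower, no variance trend 0 and 0, and leaving out a tumour 0 to 469 and 0 to 252. Inhibitors below the cerebellum in all tumours numbered 1, but 2 within either prefix (also over probe sets) and 1 to 2 with a tumour left out. With a floor of 50, Cdkn2b was no longer above it in every tumour.

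Directions reversed for Cdkn1a with the ken-titled tumours (-0.018) and without medulloblastoma 3 (-0.033; -0.033 to 0.45 over the tumours left out), for Cdkn2a with the ken-titled tumours (-0.42), and for the dim Cdkn1b probe set in those settings (-0.18, and -0.021 to 0.29). Between prefixes they reversed for Cdkn1a without medulloblastoma 3 (-1.02 to 0.045), and without medulloblastoma 2 for Cdkn2c (-0.16 to 0.49) and Cdkn2d (-0.15 to 0.35). Leaving out a tumour also moved the difference from the cerebellum for Cdkn2a between 0.085 and 0.72, and the ken minus hmk difference for Cdkn2b between -2.43 and -0.38. List medians depended on the setting too: over all of them that of p53 targets ran between 0.32 and 0.96, of regulators between 0.032 and 0.44, of the breakdown genes between 0.085 and 0.34, of granule neuron precursor markers between -0.44 and -0.13, of mature neuron markers between 0.40 and 1.07, and of the retinoblastoma family and E2F factors between 0.020 and 0.34. Except where fewer arrays or genes entered a fit, the cause was not tested. The number of arrays, 4 and 1, limits the precision.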
